A study of Mus musculus with 6 samples.

Results

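The immediate early genes followed here were Jun, Junb, Fos, Fosb, Egr1, Ier2, Ier3, Zfp36, Dusp1 and Klf4. All 10 were measured, by 12 probe sets whose platform annotation gives 1 of these symbols, out of 22690 probe sets and 12393 genes on the arrays. The rule picks them by gene name, and the list itself was drawn up with earlier results of these data known. RNA came from brown adipose tissue of mice aged 3.5 months, on a mixed C57BL6 and 129 background, that had received a high fat diet for 3 months. Control mice were YY1flox/flox (3 arrays), and YY1bKO mice were YY1flox/flox; Ucp1Cre (3 arrays), so both groups carried the floxed alleles and had the same diet. Ucp1Cre drives recombination from the promoter of Ucp1, a gene of brown adipocytes, so other cells of the tissue are not its target. The labels do not say whether an array stands for 1 mouse or for pooled mice, and p-values measure only the spread between these arrays, which may be technical. The comparison asks how loss of the zinc finger factor YY1 in brown adipocytes changes transcripts of the tissue.

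Immediate early genes are switched on within minutes of a stimulus, from factors already present in the cell, and need no new protein for it. Mitogen-activated protein (MAP) kinases act on them through serum response factor and its partners at CArG boxes, and cyclic AMP, the messenger of adrenergic signals in brown fat, acts through CREB at cAMP response elements. Their messengers are short-lived. The products are transcription factors (the AP-1 subunits Jun, Junb, Fos and Fosb, and the zinc finger proteins Egr1 and Klf4), the nuclear protein Ier2, the stress-inducible survival regulator Ier3, and 2 brakes on the response, the MAP kinase phosphatase Dusp1 and the messenger decay factor Zfp36.

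Values are log2 of the deposited linear intensities after robust multi-array averaging (RMA), differences are YY1bKO minus control on that scale, and errors of group means are SDs over 3 arrays. A gene was called at a limma adjusted p under 0.05 over all 12393 genes. Array medians lay between 6.47 and 6.48. The targeted gene checked the labels: Yy1 was 9.62 to 9.95 in the control arrays and 8.38 to 8.41 in the YY1bKO arrays (log2 fold change -1.43 ± 0.10, SE, adjusted p = 0.000854). Of 12 brown adipocyte markers 10 were measured and none of these was dim, with Ucp1 at 13.71 to 13.98. Control replicate 2 stood apart in muscle markers. The summed linear intensity of 10 skeletal muscle markers was 140129 there, 23097 and 28420 in the other control arrays, and 51131 to 68543 in YY1bKO arrays. Control replicate 3 was low in fibroblast markers, which summed to 8490 there, 15139 and 16157 in the other control arrays, and 13028 to 15357 in YY1bKO arrays. Its macrophage markers summed to 3503, beside 6008 and 6422 in the other control arrays. Differences and counts of calls were therefore also computed without each array in turn, and the spread between arrays was not.

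Promoter sequences are shown for the 3 genes called lower (Jun, Klf4 and Ier3), for Zfp36, whose groups did not overlap, and for Fos and Dusp1, which shared the same order of YY1bKO arrays. Each is the 250 bases before the RefSeq start site in build GRCm38.p6, read 5′ to 3′ on the strand of the gene, and capitals mark the matches to the motifs named after them.
Jun, chr4:95052223-95052472, minus strand: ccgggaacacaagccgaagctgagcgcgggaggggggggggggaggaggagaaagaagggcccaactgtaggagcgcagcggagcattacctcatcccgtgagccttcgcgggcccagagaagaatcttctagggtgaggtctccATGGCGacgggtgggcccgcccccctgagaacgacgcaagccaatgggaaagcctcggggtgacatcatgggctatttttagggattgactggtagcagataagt
Klf4, chr4:55532476-55532725, minus strand: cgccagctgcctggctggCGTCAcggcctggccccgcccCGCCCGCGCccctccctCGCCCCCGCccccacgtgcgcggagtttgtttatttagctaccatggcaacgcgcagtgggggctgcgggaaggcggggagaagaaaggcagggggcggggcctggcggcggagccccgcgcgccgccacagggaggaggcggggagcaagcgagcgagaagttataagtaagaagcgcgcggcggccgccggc
Ier3, chr17:35821463-35821712, plus strand: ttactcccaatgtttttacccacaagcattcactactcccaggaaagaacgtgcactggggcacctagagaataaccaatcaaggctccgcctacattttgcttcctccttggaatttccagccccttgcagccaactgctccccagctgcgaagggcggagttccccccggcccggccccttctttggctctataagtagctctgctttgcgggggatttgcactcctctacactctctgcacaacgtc
Zfp36, chr7:28379229-28379478, minus strand: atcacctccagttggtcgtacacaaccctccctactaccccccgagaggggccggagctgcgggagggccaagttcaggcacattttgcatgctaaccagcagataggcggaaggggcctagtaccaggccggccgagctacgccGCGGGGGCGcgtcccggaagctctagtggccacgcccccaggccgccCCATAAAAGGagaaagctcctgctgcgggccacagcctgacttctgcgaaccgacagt
Fos, chr12:85473640-85473889, plus strand: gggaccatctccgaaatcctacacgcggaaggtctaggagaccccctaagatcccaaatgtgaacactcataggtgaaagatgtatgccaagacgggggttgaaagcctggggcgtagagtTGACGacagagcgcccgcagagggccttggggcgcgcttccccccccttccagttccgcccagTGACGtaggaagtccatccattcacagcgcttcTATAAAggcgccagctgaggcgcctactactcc
Dusp1, chr17:26508473-26508722, minus strand: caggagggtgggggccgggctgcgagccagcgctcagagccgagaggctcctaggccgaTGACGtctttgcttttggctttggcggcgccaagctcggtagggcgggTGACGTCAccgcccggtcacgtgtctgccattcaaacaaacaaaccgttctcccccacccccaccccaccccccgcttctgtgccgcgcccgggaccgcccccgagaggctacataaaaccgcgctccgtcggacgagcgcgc

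Windows running to 50 bases after the start were searched on both strands, and 8 of the 10 genes have one in the table used. The cAMP response element TGACGTCA was in the Dusp1 window, its first base at -143 from the start site, against 1.79% of 32851 windows of all genes. Its core TGACG, which also counts inside the full element, was in 5 of the 8 windows (Junb, Fos, Fosb, Dusp1 and Klf4) and in 20.8% of all windows. The CArG box was found for Zfp36, at -58, and in 1.63% of all windows. The EGR site GCGNGGGCG was in the windows of Fosb, Zfp36 and Klf4, the last with matches at -211 and -194, and in 5.55% of all. The YY1 core ATGGCG was in 1 of the 8, that of Jun at -105, and in 8.93% of all. The TATA element TATAAA was in the window of Fos, at -33, and in that of Junb, at 1 and so not before the start site. It was in 13.6% of all windows. The AP-1 site TGANTCA was in none of the 8 and in 7.81% of all. A match is a description of these letters, and elements that lie farther from the start were not searched.

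Jun, Ier3 and Klf4, 3 of the 10 genes, fell in YY1bKO tissue by limma and none rose. The background share of called genes was 8.09% lower and 10.2% higher. At an unadjusted p under 0.05, no member was higher and 4 were lower, beside 17.9% higher and 14% lower of all genes. In 4 members, Jun, Ier3, Klf4 and Zfp36, all YY1bKO values lay below all control values, as they did in 15.7% of all genes. For no member did they all lie above, as for 22.8% of all genes. The members' median difference was -0.32, beside 0.04 over all genes, and it was -0.61 without YY1bKO replicate 1 and -0.19 without YY1bKO replicate 2. Without single arrays 1 or 2 members were called lower. Jun was among them each time, and it was alone without control replicate 1, control replicate 3 or YY1bKO replicate 3. Over all genes, 466 to 1439 were called lower without single arrays, beside 1003 with no array left out. The plot of differences shows the 10 genes side by side.

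**Figure D1:**
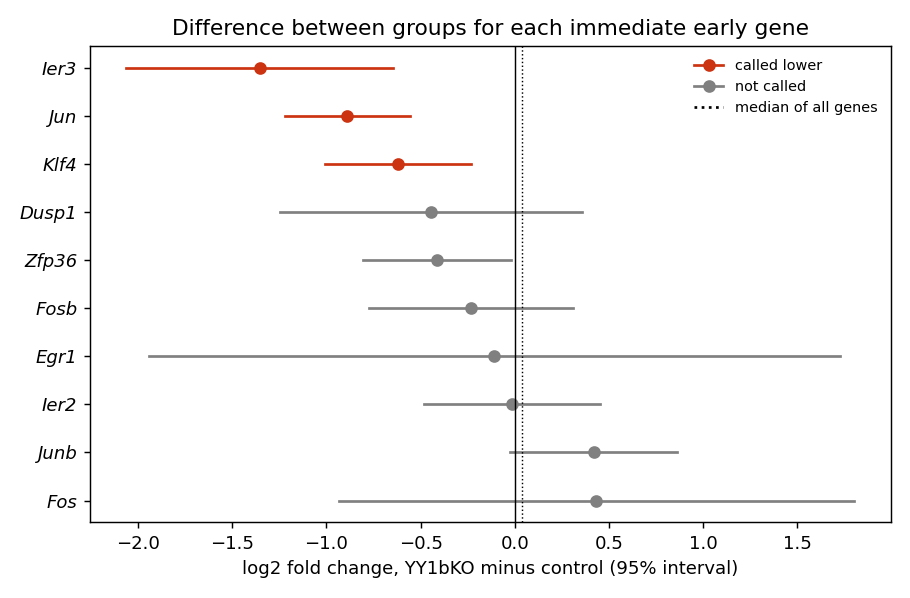
Log2 fold change (YY1bKO minus control, horizontal axis) of each immediate early gene with its 95% interval from limma, 3 arrays per group. Red marks the 3 genes called lower (Ier3, Jun and Klf4), grey the 7 not called, and the dotted line the median of all genes at 0.04; the intervals of Egr1 and Fos are the widest.

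Of the AP-1 subunits, Jun had the clearest fall. Jun encodes c-Jun, the AP-1 subunit that N-terminal kinases of the MAP kinase group activate. Its brighter probe set read 9.41, 9.55 and 9.08 in control replicates 1, 2 and 3, and 8.51, 8.56 and 8.31 in YY1bKO replicates 1, 2 and 3. All YY1bKO arrays lay below all control arrays, with a gap wider than the spread within either group. The means were 9.35 ± 0.24 and 8.46 ± 0.13, and Jun fell by 0.89 ± 0.14 (SE) on the log2 scale, which is 1.85-fold (adjusted p = 0.00833). The other Jun probe set read 8.40, 8.58 and 8.27 in control and 7.78, 7.88 and 7.62 in YY1bKO arrays. It fell by 0.65 ± 0.11 (SE, adjusted p = 0.0124 over all named probe sets, of which 7.29% were called lower). Jun was called in all 14 alternative analyses, with differences from -1.02 to -0.77.

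Junb, whose protein can pair with Fos proteins in place of c-Jun and is a weaker activator, went the other way without passing the test. It read 6.03, 6.08 and 5.76 in control and 6.30, 6.07 and 6.76 in YY1bKO arrays, a dim level, below the array median on all arrays except YY1bKO replicate 3. The groups overlapped, since YY1bKO replicate 2 lay within the control range. The log2 fold change was 0.42 ± 0.19 (SE, 95% interval -0.02 to 0.86, adjusted p = 0.175), and 0.23 without YY1bKO replicate 3.

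Fos, the partner that gives AP-1 its acute induction, varied widely within each group. It read 7.96, 8.85 and 6.87 in control replicates 1, 2 and 3, and 9.19, 7.59 and 8.20 in YY1bKO replicates 1, 2 and 3. The highest and lowest control arrays differed 3.94-fold and the YY1bKO arrays 3.03-fold, and the groups overlapped. The log2 fold change of 0.43 ± 0.57 (SE, 95% interval -0.94 to 1.80, adjusted p = 0.658) turned to -0.079 without control replicate 3. Fosb, a second Fos family subunit, was dim on all arrays, at 3.49 to 4.30 in control and 3.42 to 3.82 in YY1bKO. The groups overlapped, and the difference of -0.23 ± 0.23 (SE, adjusted p = 0.535) turned to 0.015 without control replicate 1.

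**Figure D2:**
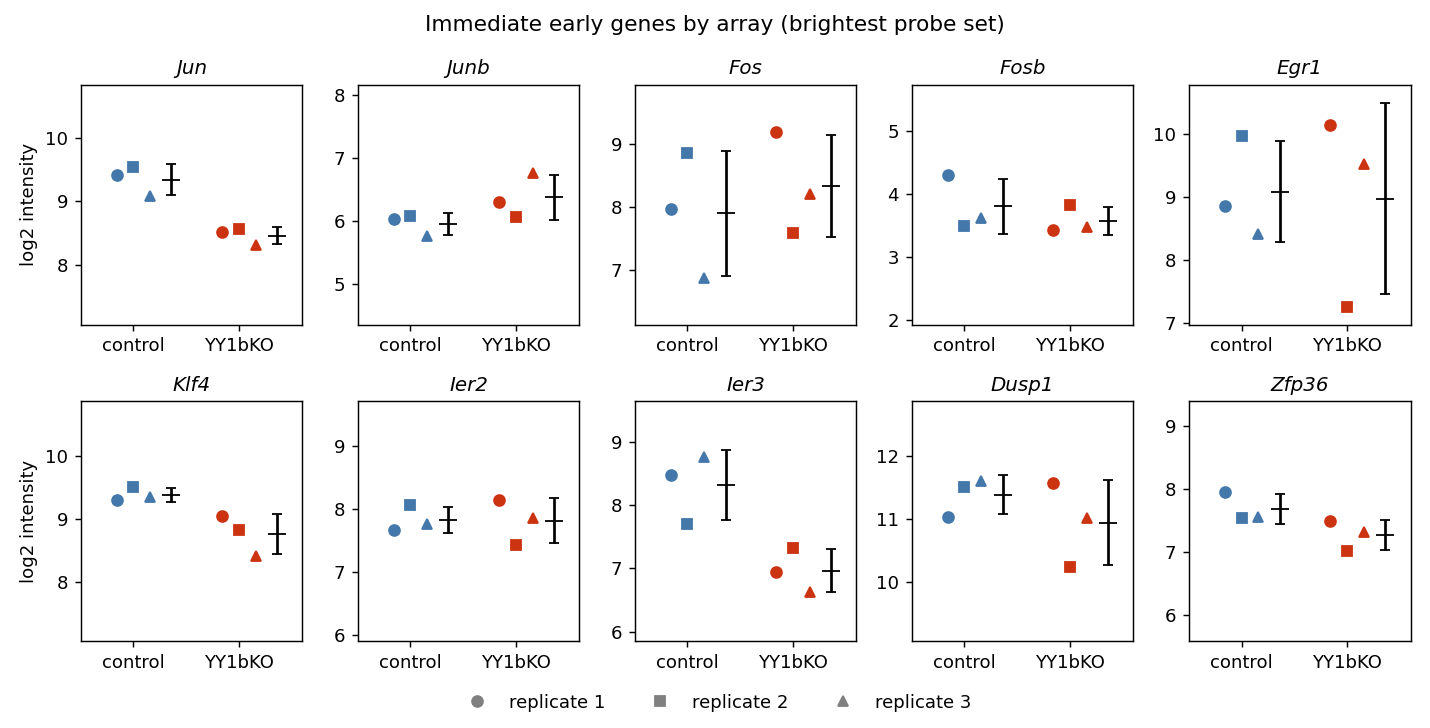
Log2 intensity (vertical axis, each panel spanning the same range of log2 units) of the 10 immediate early genes in each control (blue) and YY1bKO (red) array; symbols mark the replicate, and black bars the mean ± SD of 3 arrays. Jun, Ier3, Klf4 and Zfp36 have no overlap between groups, and Egr1 in YY1bKO arrays runs from 7.26 to 10.15.

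Klf4, the other zinc finger factor of the set, fell. Klf4 is a regulator of differentiation that is also expressed in endothelium. Its brighter probe set read 9.29, 9.50 and 9.35 in control and 9.04, 8.82 and 8.42 in YY1bKO arrays. The control arrays lay close together and above all YY1bKO arrays. Klf4 thus fell by 0.62 ± 0.16 (SE) on the log2 scale, which is 1.54-fold (adjusted p = 0.0427). The second Klf4 probe set, at 8.17 to 8.31 in control and 7.48 to 8.07 in YY1bKO arrays, had no overlap between groups and a difference of -0.46 ± 0.15 (SE) that was not called (adjusted p = 0.0881). The mean over both probe sets gave -0.54 (adjusted p = 0.0567). Klf4 lost its call when control replicate 1 (adjusted p = 0.0913), 2 (0.0605) or 3 (0.0861) was left out, and also when YY1bKO replicate 2 (0.111) or 3 (0.0785) was, at differences of -0.66 to -0.45.

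Egr1, the growth factor-inducible zinc finger factor, was the most variable member. It read 8.87, 9.98 and 8.42 in control replicates 1, 2 and 3, and 10.15, 7.26 and 9.53 in YY1bKO replicates 1, 2 and 3. YY1bKO arrays held both the highest and the lowest value, 7.39-fold apart. The group means were 9.09 ± 0.80 and 8.98 ± 1.52, and the log2 fold change was -0.11 ± 0.77 (SE, 95% interval -1.94 to 1.73, adjusted p = 0.943). Its sign turned without YY1bKO replicate 2 (0.75) or control replicate 2 (0.34).

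Ier3 had the largest difference of the 10 genes in these data. Ier3 encodes a small membrane-associated protein, induced by stress and NF-κB, that modulates cell survival. It read 8.48, 7.70 and 8.77 in control replicates 1, 2 and 3, and 6.94, 7.32 and 6.63 in YY1bKO replicates 1, 2 and 3. Control replicate 2, the array rich in muscle markers, was the lowest control array, and it still lay above the highest YY1bKO array. Ier3 fell by 1.35 ± 0.30 (SE) on the log2 scale, which is 2.56-fold (adjusted p = 0.0242). Without control replicate 2 it was -1.66 (adjusted p = 0.00281). In that run 9 of 10 skeletal muscle markers were called higher, so the groups then differed in muscle markers as well. Ier3 lost its call when control replicate 1 (adjusted p = 0.0817) or 3 (0.0567) was left out, and also when YY1bKO replicate 1 (0.0833) or 3 (0.0890) was, at differences of -1.34 to -1.13. Ier2, by contrast, showed near-equal means. It read 7.66, 8.06 and 7.77 in control and 8.14, 7.44 and 7.86 in YY1bKO arrays, with the control values inside the YY1bKO range, and a difference of -0.02 ± 0.20 (SE, 95% interval -0.48 to 0.45, adjusted p = 0.967). The sign of Ier2 turned without control replicate 2 (0.10) or YY1bKO replicate 2 (0.17).

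Both brakes on the response were lower on average, and neither passed the test. Zfp36 encodes tristetraprolin, which binds AU-rich elements and speeds messenger decay. It read 7.96, 7.54 and 7.56 in control and 7.49, 7.01 and 7.31 in YY1bKO arrays. The groups did not overlap, though control replicate 2 and YY1bKO replicate 1 lay close together. The difference was -0.41 ± 0.16 (SE, unadjusted p = 0.0417, adjusted p = 0.138), and it was not called in any of the 14 alternatives. Dusp1, the phosphatase that switches off MAP kinases, was bright, at 11.03, 11.51 and 11.60 in control and 11.57, 10.23 and 11.01 in YY1bKO arrays. The groups overlapped, with YY1bKO replicate 1 among the highest arrays and YY1bKO replicate 2 the lowest, and the difference was -0.44 ± 0.34 (SE, adjusted p = 0.415). It was -0.76 without YY1bKO replicate 1 and -0.091 without YY1bKO replicate 2.

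Arrays of a group differed more in these genes than in most genes. The within-group SD was above the median of all genes (0.13) in all 10 members, and in 5 of them (Fosb, Ier3, Dusp1, Fos and Egr1) it lay at percentiles 92.2 to 99.4 of all genes. The members' median SD was 0.32, with 1.22 for Egr1 and 0.90 for Fos. In the 9 related gene lists described below, median SDs ran from 0.11 (messenger decay) to 0.37 (heat shock genes). They were 0.25 for other immediate and delayed early genes and 0.26 for MAP kinase feedback inhibitors. Fibroblast markers had a median SD of 0.41 and skeletal muscle markers 1.10, so a high spread was not particular to the members. Jun, at 0.19, had the smallest SD of the members. These figures describe 6 arrays and carry no test.

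**Figure D3:**
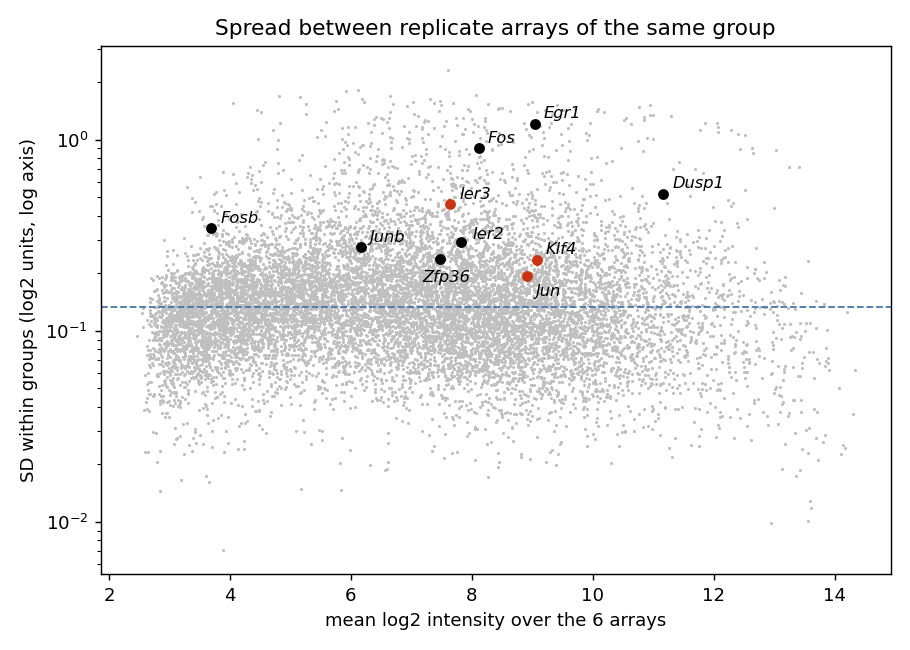
Within-group SD of log2 intensity (vertical axis, log scale) against mean log2 intensity over the 6 arrays for all 12393 genes (grey), with the immediate early genes named (red, called lower; black, not called). The dashed line is the median SD of all genes, 0.13, and all 10 members lie above it.

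Part of the set shared an order of arrays within a group. Fos, Egr1, Ier2, Zfp36 and Dusp1 were highest in YY1bKO replicate 1, intermediate in replicate 3 and lowest in replicate 2, an order that 14.8% of all genes had. Among control arrays, Jun, Junb, Fos and Egr1 were highest in replicate 2 and lowest in replicate 3, an order seen in 16.9% of all genes. Ier2, Zfp36 and Dusp1 each had a different order in the control arrays. YY1bKO replicate 2 lay 1.72 below its group mean for Egr1, 0.74 for Fos, 0.71 for Dusp1 and 0.38 for Ier2. Over the 6 deviations from group means, Pearson's r was 0.95 between Egr1 and Ier2, 0.91 between Ier2 and Dusp1, 0.85 between Egr1 and Fos, and -0.76 between Egr1 and Ier3. These r values rest on 6 arrays, were picked after the values were seen, and describe RNA extracts that share all other features of the array. Jun, the member with the clearest fall, deviated by at most 0.26 on any array.

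**Figure D4:**
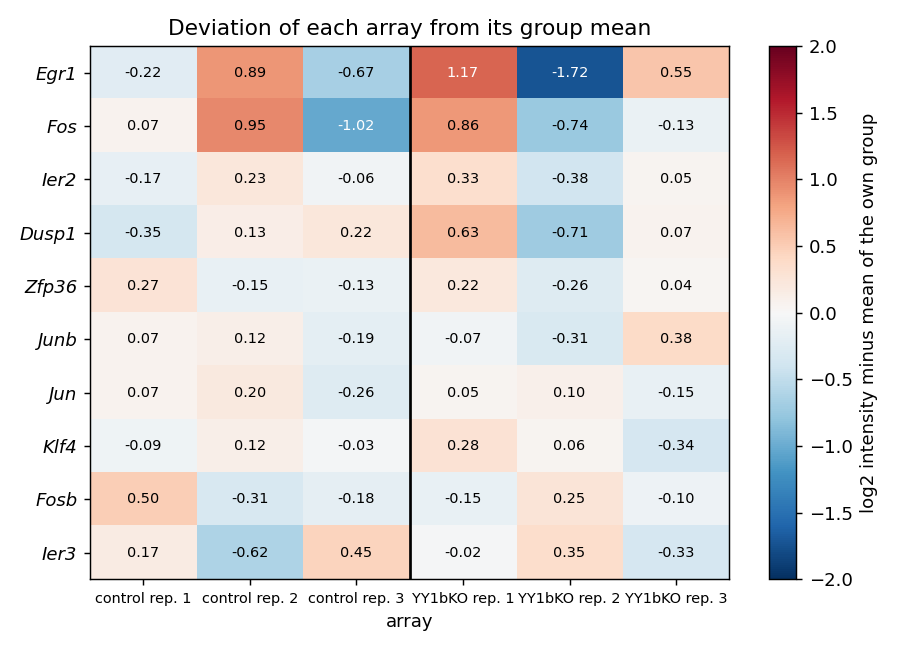
Log2 intensity of each array minus the mean of its own group (colour and printed number) for the 10 immediate early genes (rows) in the 6 arrays (columns, control left and YY1bKO right of the line). Egr1, Fos, Ier2 and Dusp1 are above their group mean in YY1bKO replicate 1 and below it in YY1bKO replicate 2, with Egr1 at -1.72 in the latter.

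Endothelial markers were lower in YY1bKO tissue, and the joint list of smooth muscle and pericyte markers went both ways. Of all genes, 15.7% were lower in every YY1bKO array than in every control array, 8.09% were called lower and 10.2% higher. All 7 endothelial markers were lower in every YY1bKO array than in every control array, and 4 were called lower, Cdh5 (-0.53), Tek (-0.65), Kdr (-0.53) and Egfl7 (-0.33). Their summed linear intensity was 2898 to 3179 in control and 2055 to 2292 in YY1bKO arrays, and Tie1 was the only dim one. The number called lower was 1 with control replicate 1 or YY1bKO replicate 2 left out, and 2 with YY1bKO replicate 1 left out. Of 7 smooth muscle and pericyte markers, the pericyte genes Cspg4 (-0.95), Pdgfrb (-0.77) and Rgs5 (-0.53) were called lower. The other 4, the contractile genes Acta2 (0.20), Myh11 (0.33), Tagln (0.38) and Cnn1 (0.49), were not called, and their differences had the opposite sign. The list median was 0.20, and the split into pericyte and contractile genes was not planned. Cnn1, a dim gene, did not overlap between groups (adjusted p = 0.0548). Leaving out any array except control replicate 3 gave 2 calls. That list summed to 7835 to 9512 in control and 6517 to 7041 in YY1bKO arrays. In whole tissue, fewer cells of a type and less RNA per cell cannot be told apart, and the part of these markers in the differences of Jun, Klf4 and Ier3 was not tested.

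The other marker lists are given by count, beside 10.2% called higher and 8.09% called lower of all genes. Called higher and lower were 2 and 0 of 10 brown adipocyte markers, 1 and 1 of 5 white adipocyte markers and 0 and 1 of 8 macrophage markers. The counts were 1 and 0 of 5 lymphocyte markers and 0 and 1 of 3 Schwann cell markers. Among the last, S100b (-2.46) was the lower one. Mbp (0.39) and Sox10 (0.20) were not called, and their differences had the opposite sign. The brown adipocyte count was 1 higher with control replicate 1 or any YY1bKO array left out. No lymphocyte marker was called with any of those 4 arrays left out, and no macrophage marker with any YY1bKO array left out. None of 10 skeletal muscle, 6 fibroblast, 4 neutrophil or 2 erythroid markers was called by limma, and none had an unadjusted p under 0.05. Without control replicate 2, 9 of the 10 muscle markers were called higher. Macrophage markers summed to 3503 to 6422 in control and 5035 to 5611 in YY1bKO arrays, and the 5 lymphocyte markers were all dim.

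Of 186 measured genes in 9 lists related to the 10 members, 11 were higher and 18 lower, beside 10.2% higher and 8.09% lower of all genes. These shares are the background for each list below. The median difference of the related genes was -0.05. The plot of related lists shows each gene. Of 29 called genes, 9 were called in every alternative run: Mafg, Rnd3, Plk2, Spry1, Dusp3, Parn, Exosc1, Exosc2 and Hspb8. With control replicate 2 left out, 17 were higher and 30 lower. With control replicate 1, or YY1bKO replicate 1, 2 or 3, left out, 3 to 5 were higher and 6 to 10 lower. Over all genes, 1661 were higher and 1439 lower without control replicate 2. Without control replicate 1 or a YY1bKO array, 547 to 678 of all genes were higher and 466 to 541 lower.

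**Figure D5:**
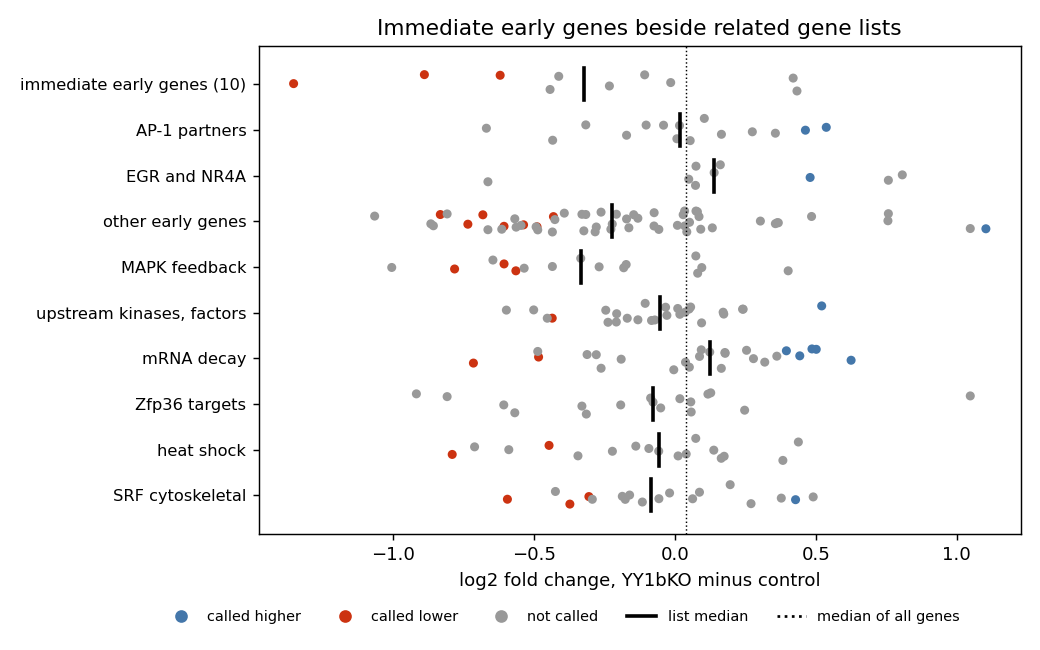
Log2 fold change (YY1bKO minus control, horizontal axis) of each immediate early gene and of each measured gene in 9 related lists (1 dot per gene, jittered vertically; blue, called higher; red, called lower; grey, not called), with list medians as bars and the median of all genes, 0.04, dotted. The members' median lies at -0.32, and the bars of the early genes and the MAP kinase feedback list lie at -0.22 and -0.33.

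Among 15 other AP-1 and related leucine zipper genes, 2 were higher and 0 lower, with 1 lower at an unadjusted p under 0.05. The small Maf protein gene Mafg rose by 0.54 (adjusted p = 0.00800). Atf7, a CREB family factor, was called higher at a dim level (0.46, adjusted p = 0.0212), but was at 0.19 (adjusted p = 0.157) in the mean over probe sets. Its call also went when control replicate 1 or any YY1bKO array was left out (adjusted p = 0.0677 to 0.0831), which left 1 higher gene in this list. Jdp2, a repressor that pairs with Jun, had a difference of -0.67 (adjusted p = 0.0981), which was called without control replicate 2 (-0.83, adjusted p = 0.0384), when 3 genes of the list were lower, and was -0.45 (0.202) without control replicate 1. Of 9 genes of the EGR and NR4A families and their corepressors, 1 was higher and 0 lower, with 1 lower at an unadjusted p under 0.05. This was Nab1, which restrains EGR factors (0.48, adjusted p = 0.0436), a call that went when control replicate 1 or any YY1bKO array was left out (adjusted p = 0.0826 to 0.136) and in the mean over probe sets (0.0577). Nr4a2, an inducible orphan receptor, had 0.81 ± 0.26 (SE, adjusted p = 0.0771), and it was 1.35 (adjusted p = 0.0398) in the mean over probe sets. The dim gene Egr2 had -0.66 (adjusted p = 0.140) and was called without control replicate 3 (-0.93, adjusted p = 0.0386), while it was at -0.45 (0.328) without control replicate 1.

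Of 57 other immediate and delayed early genes, 7 were lower and 1 higher, and the list median was -0.22. Rnd3 fell by 0.83 (adjusted p = 0.00186), and the Polo-like kinase gene Plk2 by 0.74 (adjusted p = 0.00649). Tiparp, a mono-ADP-ribosyltransferase, gave -0.43 and the kinase gene Sgk1 -0.49. Tiparp lost its call with control replicate 1 or 3, or YY1bKO replicate 2 or 3, left out (adjusted p = 0.0502 to 0.0716) or in the mean over probe sets (0.0622), and Sgk1 with any array except control replicate 2 left out (0.0537 to 0.0781). The other 3 lower genes, Id3, Klf2 and Ets2, lay between -0.68 and -0.54, and the 1 higher gene, the stress-inducible Gadd45a, at 1.10 (adjusted p = 0.0429). Each of these 4 lost its call with control replicate 1, or with YY1bKO replicate 2 or 3, left out (adjusted p up to 0.146). With any of these 3 arrays left out the list had 2 lower genes, and with control replicate 2 left out it had 15.

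Feedback inhibitors of MAP kinase signalling had 3 lower and 0 higher genes of 15, with 1 higher at an unadjusted p under 0.05, and a median of -0.33. Dusp3, a phosphatase that acts on MAP kinases, fell by 0.78 (adjusted p = 0.00771), and Spry1, an inhibitor of receptor tyrosine kinase signalling, by 0.61 (adjusted p = 0.00687). Spred2, at -0.56 (adjusted p = 0.0317), was not called in the mean over probe sets (-0.25, adjusted p = 0.120), nor with control replicate 1 or any YY1bKO array left out (adjusted p = 0.0702 to 0.0933). Leaving out single arrays gave 2 to 4 lower genes. Upstream kinases and factors had 1 higher and 1 lower gene of 26 measured. At an unadjusted p under 0.05, 1 was higher and 5 were lower, beside 17.9% higher and 14% lower of all genes. Mapk8, which encodes the kinase JNK1, gave 0.52 (adjusted p = 0.0329) and lost its call with any array except control replicate 2 left out (adjusted p = 0.0844 to 0.106) and in the mean over probe sets (0.24, adjusted p = 0.0900). In the same list the coactivator gene Crebbp gave -0.44 (adjusted p = 0.0446), a call lost whichever array was left out (0.0526 to 0.146). Rps6ka3 (-0.60, adjusted p = 0.0527) and Elk3 (-0.50, adjusted p = 0.0853) were not called. Rps6ka3 was called without control replicate 3 (-0.80, adjusted p = 0.00800), and was at -0.17 (0.216) in the mean over probe sets.

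Of 25 genes of AU-rich element binding or messenger decay, 5 were higher and 2 lower, beside 10.2% higher and 8.09% lower of all genes. Parn, a poly(A)-specific ribonuclease, rose by 0.62 (adjusted p = 0.00288) and the exosome gene Exosc1 by 0.50, while the exosome gene Exosc2 fell by 0.48. The deadenylase gene Cnot8 gave 0.44 (adjusted p = 0.0115) and lost its call with YY1bKO replicate 1 left out (0.0522). Tia1, which binds AU-rich elements, gave -0.72 and lost its call with YY1bKO replicate 2 (0.0550) or 3 (0.0522) left out. The list had 2 higher genes with YY1bKO replicate 1 left out and 3 with YY1bKO replicate 2 left out, and 1 lower gene with YY1bKO replicate 2 or 3 left out and 4 with control replicate 2 left out. No gene of 17 known Zfp36 targets other than Ier3 was called by limma, 1 was higher and 3 were lower at an unadjusted p under 0.05, and 13 of them were dim. The differences were 1.05 for the kinase gene Pim1 (adjusted p = 0.0598), -0.61 for the chemokine gene Ccl2 (0.0996), -0.57 for Nfkbiz (0.125) and -0.92 for the chemokine gene Cxcl1 (0.138). With control replicate 2 left out these 4 were called, at 1.15, -0.77, -0.72 and -1.21 (adjusted p = 0.0283 to 0.0466). With control replicate 1 left out, Ccl2 was at -0.36 and Cxcl1 at -0.48, and with YY1bKO replicate 2 left out Nfkbiz was at -0.36, none of them called. In the mean over probe sets Pim1 was called higher (0.98, adjusted p = 0.0368), and Nfkbiz was at -0.33 (0.266). Pim1 was also called with dim genes left out (0.0489).

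Heat shock genes, which many acute stresses induce, had 2 lower and 0 higher of 17, with 0 higher at an unadjusted p under 0.05. Hspb8, a small heat shock protein, fell by 0.79 (adjusted p = 0.00899). Dnajb4, a cochaperone, gave -0.45 (adjusted p = 0.0471) and lost its call with any array except control replicate 3 left out (adjusted p = 0.0673 to 0.149). The list had 1 lower gene with control replicate 1 or any YY1bKO array left out. Cytoskeletal targets of serum response factor had 3 lower and 1 higher of 18. Cald1, an actin-binding protein, gave -0.59 (adjusted p = 0.0123), a call lost with YY1bKO replicate 1 (0.0507) or 2 (0.0561) left out. Vinculin, encoded by Vcl, gave -0.37, with the call lost when control replicate 1 or any YY1bKO array was left out (adjusted p = 0.0880 to 0.0961) and in the mean over probe sets (-0.21, adjusted p = 0.137). The actin genes Actg1 (-0.31) and Actg2 (0.43, dim) were also called, and neither call held with control replicate 1 or 3 or any YY1bKO array left out. With YY1bKO replicate 1 or 2 left out the list had 0 lower genes, with control replicate 1 or YY1bKO replicate 3 left out it had 1, and with control replicate 2 left out it had 3 higher genes.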

How the data were processed

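The deposited values are intensities of 22690 Affymetrix probe sets on 6 arrays, on a linear scale. They were made by RMA, per the submitters' processing notes. Which version and which options were used is not stated there. The intensities, all above 0, were taken to log2 with no pseudocount. Of the probe sets, 64 are controls, 20380 have 1 gene symbol, 691 several and 1555 none here. Probe sets with several symbols or none were not tested. Each gene was represented by its brightest probe set, and all named probe sets were fitted once more for the members' second probe sets. Groups were compared with limma 3.58.1 in R 4.3.3 (lmFit, eBayes, two-sided, Benjamini-Hochberg adjustment). The fit was tested on simulated data. Genes with a mean of 6.49 or less, the median over probe sets, are called dim. RMA pulls in differences of dim probe sets. With 3 arrays a group, their number limits the precision.

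Motif searches used RefSeq promoter windows. The members, the 9 related lists and the 11 marker lists were chosen with earlier results of these data known. Named genes were all members, Yy1, Ucp1 and up to 4 genes of each related list by smallest p. Markers, and Tia1, Id3, Klf2, Ets2 and Gadd45a, are named beyond that rule, chosen after their values were seen. List members not found on the arrays are not analysed here.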

Additional observations from a re-analysis of the deposited data

How the results depend on the processing

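With 14 alternatives run, the sign of Jun, Junb, Ier3, Zfp36, Dusp1 and Klf4 held in each one that could be fitted, and Junb and Fosb had no value when dim genes were left out. The cause of the changes below was not tested. Ier2 turned to 0.0089 after quantile normalization, and with array weights Ier2 was 0.074 and Egr1 0.12. With array weights the related lists had 17 higher and 33 lower genes. With the replicate number as a block, 1 member was called lower (Jun), with adjusted p = 0.0737 for Ier3 and 0.0697 for Klf4, 5 related genes were higher, and over all genes 671 were higher and 639 lower. Same-numbered arrays deviated together with r of -0.25, 0.11 and 0.26, so the numbers were not taken as a pairing. Leaving out each array in turn gave 1 to 2 members called lower, 3 to 17 related genes higher and 6 to 30 lower, and over all genes 547 to 1661 higher and 466 to 1439 lower. The differences then ran from -0.69 to 0.75 for Egr1, from -0.079 to 0.91 for Fos, from -0.39 to 0.015 for Fosb and from -0.18 to 0.17 for Ier2. No detection calls are in the table, so dim probe sets such as Fosb have no stated lower limit.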
